A study of Mus musculus with 8 samples.

Results

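Transcripts of 10 feedback genes of the RAS-ERK pathway (Dusp2, Dusp4, Dusp5, Dusp6, Spry1, Spry2, Spry4, Spred1, Spred2 and Etv5) were followed in 8 libraries of Ba/F3, a line of immortalised mouse pro-B cells whose growth depends on interleukin-3. The genes were taken by name, by their Ensembl identifiers, from a table of read counts for 53465 genes. The 5 transformed libraries (replicates 4 to 8) came from Ba/F3 cells transformed with U2AF35 carrying S34F, a mutated form of the small subunit of the splicing factor that recognises the end of an intron. The 3 parental libraries (replicates 1 to 3) came from Ba/F3 cells with wild-type U2AF35. Both groups share the C3H background and were sequenced from polyA RNA. The vector that expressed the mutant is not named in the labels. The title states a search for variants with a function in transformation, and the comparison made here is whether feedback genes of the growth factor pathway differed between the groups.

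ERK is the last kinase of a cascade that runs from a growth factor receptor through RAS, RAF and MEK. Active ERK switches on genes whose products dampen the same cascade, so their transcripts are widely read as a gauge of recent ERK signalling. The dual-specificity phosphatases (DUSP) remove phosphate from ERK and related kinases, Sprouty and Spred proteins act higher up between receptor, RAS and RAF, and Etv5 is an ETS transcription factor induced by the pathway. In Ba/F3 cells the cascade is fed by the interleukin-3 receptor. The labels do not state what the medium held when RNA was taken.

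Libraries held between 36122062 counts (transformed 7) and 50305573 counts (parental 1), so that 3 counts, the limit a count of 0 allows, came to between 0.0586 and 0.0856 counts-per-million (CPM). Nothing in the labels tells if replicates were independent cultures or clones. The p-values therefore rest on the spread among these 8 samples alone, and that spread may be technical. The labelled pro-B identity rested on few transcripts, since 10 of 12 early B lineage markers stayed under 1 CPM in every library, with Il7r and Rag1 at 0, and the summed level of the list, led by Cd79a, was 54.3 to 77.8 CPM in transformed and 63.7 to 76.2 CPM in parental libraries. Of the markers of other cells, Kit, Fcer1a and Prss34 of 8 mast cell and basophil markers were at 0, and the list, led by Gata2, summed to 439 to 1590 CPM in transformed and 714 to 871 CPM in parental libraries. Of the 10 granulocyte and macrophage markers, 5 stayed under 1 CPM in every library, though none was at 0 in all. That list, led by Adgre1, summed to 208 to 590 CPM in transformed and 374 to 489 CPM in parental libraries. Of the 8 T cell markers, 7 stayed under 1 CPM in every library, with Cd8a and Cd2 at 0. That list, led by Lck, summed to 1.19 to 4.14 CPM in transformed and 0.779 to 1.64 CPM in parental libraries. Of the 8 fibroblast and stroma markers, 7 stayed under 1 CPM in every library, with Col1a2, Col3a1, Pdgfra and Thy1 at 0. That list, with most of the sum from Acta2, came to 28.7 to 119 CPM in transformed and 41.2 to 94.6 CPM in parental libraries. No gene of these lists passed the test between the groups, at an edgeR adjusted p of 0.05, and their part in the results was not tested. U2af1, the gene of U2AF35, was at 130 ± 24.4 CPM in transformed (SD, n = 5) and 91.7 ± 6.47 CPM in parental libraries (SD, n = 3), with a log2 fold change of 0.51 (SE 0.16, edgeR adjusted p = 0.108), and transformed 7, at 92.0 CPM, lay inside the parental range. A gene count does not separate an introduced copy from the gene of the cell, nor the S34F form from the wild-type form.

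Of the 10 genes, 8 had a promoter window in the RefSeq table used (build GRCm38.p6, from 250 bases before to 50 bases after a start site), in 9 windows, since Etv5 had 2. Dusp4 and Spry4 had none. The windows were searched on both strands for CCGGAAG (ETS factors), the CArG box of serum response factor, TGANTCA (AP-1), TGACG (the CRE core) and TTCNNNGAA (STAT). Only the Dusp5 window held a CArG box, and it held 2, starting 82 and 72 bases before the start site and so directly following each other. Such a box stood in 1.63% of the 32851 windows of the table. The CRE core was in the windows of Dusp2, Dusp5 and Spred2, and in 20.8% of all windows. No window of these genes held the ETS, AP-1 or STAT letters, which were in 8.86%, 7.81% and 8.30% of all windows. The Dusp5 and Dusp6 windows are given because these were the most abundant transcripts of the set per length. Both are on the plus strand, Dusp5 at chr19:53528895-53529194 and Dusp6 at chr10:99262981-99263280, and capitals mark the matches, first the 2 CArG boxes and then the CRE core.
Dusp5: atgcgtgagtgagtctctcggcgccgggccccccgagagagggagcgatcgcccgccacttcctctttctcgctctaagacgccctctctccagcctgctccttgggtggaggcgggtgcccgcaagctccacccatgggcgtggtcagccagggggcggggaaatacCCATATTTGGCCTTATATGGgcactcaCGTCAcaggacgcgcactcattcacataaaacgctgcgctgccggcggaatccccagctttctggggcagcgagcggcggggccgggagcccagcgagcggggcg
Dusp6: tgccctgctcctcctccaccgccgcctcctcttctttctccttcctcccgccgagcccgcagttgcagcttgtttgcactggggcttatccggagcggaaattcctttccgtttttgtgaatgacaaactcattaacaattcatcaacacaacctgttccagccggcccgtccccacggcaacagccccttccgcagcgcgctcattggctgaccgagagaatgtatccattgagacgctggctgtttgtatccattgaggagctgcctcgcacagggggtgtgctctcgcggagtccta
The Dusp6 window held none of the 5 motifs, which says only that these letters were not in this window. No match was tested for binding.

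Scaled by merged exon length, the transcripts were ordered alike in both groups at the top. Dusp5, a nuclear phosphatase selective for ERK, was at 28.7 ± 12.5 CPM per kilobase in transformed (SD, n = 5) and 33.4 ± 11.7 in parental libraries (SD, n = 3). Dusp6, the cytoplasmic ERK phosphatase, followed at 24.4 ± 14.4 CPM per kilobase in transformed and 29.0 ± 3.38 in parental libraries. Spred1 (13.8 ± 1.63 and 12.0 ± 1.54), Spred2 (13.3 ± 1.06 and 11.1 ± 1.6) and Etv5 (11.5 ± 0.461 and 9.76 ± 2.21) formed a middle tier, each pair of values being for transformed and parental libraries. Below them came Dusp4 (5.20 ± 0.968 and 4.88 ± 1.14), Dusp2 (4.83 ± 0.755 and 6.32 ± 2.68) and Spry2 (3.86 ± 2.48 and 5.48 ± 2.66) in transformed and parental libraries. Spry4 was lowest, at 1.25 ± 0.731 CPM per kilobase in transformed and 0.607 ± 0.0906 in parental libraries. Ordered by the mean over all 8 libraries, which places Dusp2 before Dusp4, the ranges overlapped between every pair of neighbours. Etv5 (7.77 to 12.2 CPM per kilobase) lay wholly above Dusp4 (3.65 to 6.26). Dusp5 was above Dusp6 in 5 of 8 libraries and Spred1 above Spred2 in 5 of 8, whereas Dusp6 was above Spred1 in 8 of 8 and Etv5 above Dusp2 in 8 of 8. Dusp2 and Dusp4 changed places between libraries, with Dusp2 the higher in 4 of 8.

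**Figure D1:**
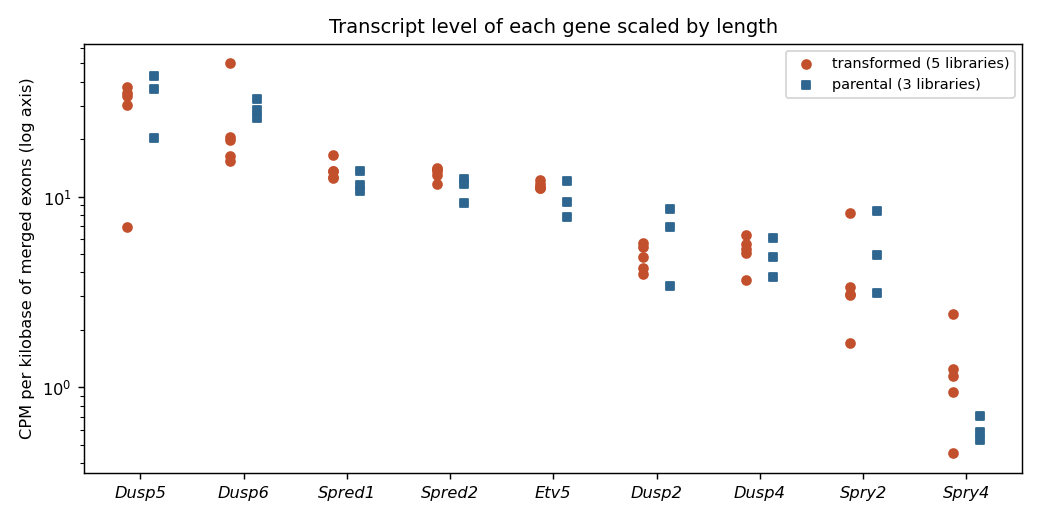
TMM-scaled CPM per kilobase of merged exons (vertical log axis) of 9 feedback genes, ordered by their mean over all libraries, in the 5 transformed libraries (circles) and 3 parental libraries (squares). Dusp5 and Dusp6 lie highest and Spry4 lowest, and the low circle for Dusp5 is transformed 4, at 6.90 CPM per kilobase.

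Spry1 was the exception, with 0 counts in all 8 libraries, so that no level or fold can be given for it. Some broadly expressed genes were also at or near 0 in this table, such as Dusp22 (0.00423 CPM on average in transformed and 0 in parental libraries). The reason was not tested, and a 0 here says only that no read was assigned to the gene. It was therefore not tested, and 9 of the 10 genes passed the filter on low counts. Gm42922, annotated on the opposite strand, shares 710 of the 2906 exonic bases of Spry1, and the sources used here do not say whether the counting used strand.

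Between the groups, 0 of the 9 tested genes passed at an edgeR adjusted p of 0.05, against 3.01% of the 17733 genes tested (0.908% as higher and 2.1% as lower). At an unadjusted p under 0.05 there was 1, Spry4, against 22.2% of all genes tested. DESeq2 and limma-voom called 0 of the 9 as well, against 10.5% and 3.24% of all genes. In edgeR 5 genes had positive and 4 negative log2 fold changes, with a median of 0.09 beside a median of 0.02 over all genes tested. In none of the 9 did the 5 transformed libraries lie wholly on one side of the 3 parental ones, which was so for 17.8% of all genes tested. The ranking of the libraries differed from gene to gene, and transformed 4 or transformed 7 stood far from the other libraries in several genes. In such bulk RNA, fewer cells that express a gene and less RNA of it per cell cannot be told apart.

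Among the ERK-selective phosphatases, Dusp6 (chromosome 10, 99263231 to 99267489, GRCm38) had 51.0, 48.4, 64.2, 156 and 62.2 CPM in transformed 4 to 8, against 102, 80.9 and 89.7 CPM in parental 1 to 3. Transformed 7 was above every parental library, and the other 4 transformed libraries were below all of them. The mean was 76.4 ± 45.2 CPM in transformed (SD, n = 5) and 90.9 ± 10.6 CPM in parental libraries (SD, n = 3). The log2 fold change was -0.25 (SE 0.37, 95% interval -1.10 to 0.60, edgeR adjusted p = 0.742). Without transformed 7 Dusp6 passed as lower (log2 fold change -0.69, edgeR adjusted p = 0.0202), where 4.76% of all genes did so. Without transformed 4 and 7 it passed as lower at -0.64 (edgeR adjusted p = 0.00491), where 16.1% of all genes did so. Leaving out any single library other than transformed 7 gave edgeR adjusted p of 0.773 or more for Dusp6. Transformed 7 was the library that stood apart for Dusp6, so leaving it out narrows the spread behind the test (SE 0.125). The calls made without transformed 7 rest on that choice.

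Dusp5 (chromosome 19, 53529109 to 53542431) had 17.1, 75.3, 86.0, 83.2 and 93.2 CPM in transformed 4 to 8, against 50.6, 91.0 and 106 CPM in parental 1 to 3. Here transformed 4 was far below all other libraries of both groups, and the remaining 4 transformed libraries lay within the parental range. The log2 fold change was -0.22 (SE 0.48, 95% interval -1.32 to 0.88, edgeR adjusted p = 0.828), and 0.0291 without transformed 4. An antisense gene, AC137853.2, shares 547 exonic bases with Dusp5 and has no row in the table used here. Whether reads from it entered the Dusp5 count depends on the strand setting of the counting, which is not given.

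The inducible nuclear phosphatases Dusp2 and Dusp4, which act on ERK and other MAP kinases, were low. Dusp2 (chromosome 2, 127336159 to 127338376) had 7.89, 9.70, 10.8, 8.45 and 11.4 CPM in transformed 4 to 8, against 6.80, 17.3 and 13.8 CPM in parental 1 to 3. Every transformed library thus lay between parental 1 and parental 3. Its log2 fold change was -0.39 (SE 0.27, 95% interval -0.99 to 0.21, edgeR adjusted p = 0.427), with -0.0832 without parental 2 and -0.68 without parental 1. Dusp4 (chromosome 8, 34807297 to 34819894) had 17.1, 13.9, 10, 14.6 and 15.5 CPM in transformed 4 to 8, against 13.2, 16.6 and 10.3 CPM in parental 1 to 3, and the groups covered nearly the same range. Its log2 fold change was 0.0914 (SE 0.20, 95% interval -0.36 to 0.54, edgeR adjusted p = 0.827), and leaving out parental 3 turned its sign (-0.0573).

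**Figure D2:**
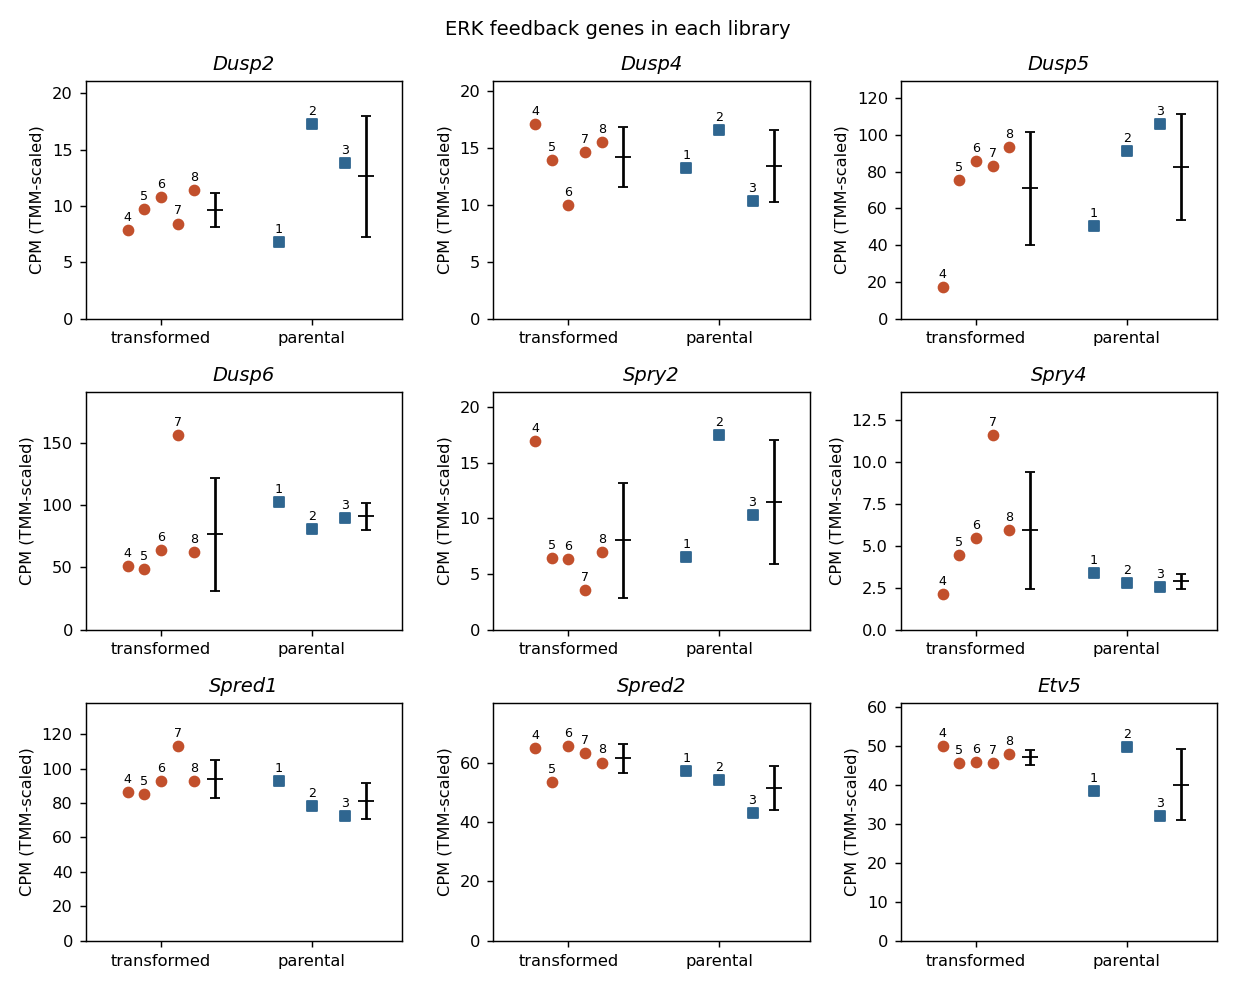
TMM-scaled CPM (vertical axes, linear from 0) of 9 feedback genes in the transformed libraries (circles, numbered 4 to 8) and the parental libraries (squares, numbered 1 to 3), where black bars give each group's mean ± SD. Transformed 7 stands high for Dusp6 (156 CPM) and Spry4 (11.6 CPM), transformed 4 stands low for Dusp5 (17.1 CPM) and high for Spry2 (17.0 CPM), and Etv5 is tight in the transformed group.

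The Sprouty proteins are inhibitors of receptor signalling to RAS and RAF. Spry4 (chromosome 18, 38586247 to 38601415) had 2.14, 4.48, 5.48, 11.6 and 5.96 CPM in transformed 4 to 8, against 3.36, 2.78 and 2.52 CPM in parental 1 to 3. Transformed 5 to 8 were above all parental libraries, and transformed 4 was below them. The mean was 5.92 ± 3.48 CPM in transformed (SD, n = 5) and 2.89 ± 0.431 CPM in parental libraries (SD, n = 3). The log2 fold change was 1.03 (SE 0.45, 95% interval 0.00 to 2.06, edgeR adjusted p = 0.223). It was positive in all 18 other settings tried, from 0.64 without transformed 7 to 1.24 without transformed 4. Without transformed 4 it passed as higher (edgeR adjusted p = 0.0384), where 6.25% of all genes did so. Without transformed 4 and 7 it likewise passed (log2 fold change 0.88, edgeR adjusted p = 0.00307), where 12.8% of all genes were called higher. Those were the lowest and highest transformed libraries for Spry4, so leaving them out narrows the spread behind the test (SE 0.157).

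Spry2 ran the other way at both ends of the transformed group. It (chromosome 14, 105891947 to 105896819) had 17.0, 6.41, 6.36, 3.57 and 6.98 CPM in transformed 4 to 8, against 6.55, 17.5 and 10.3 CPM in parental 1 to 3. Transformed 4, lowest for Spry4, was highest for Spry2, and transformed 7, highest for Spry4, was lowest for Spry2. The parental libraries themselves spanned 2.67-fold, and the groups overlapped. The log2 fold change was -0.50 (SE 0.48, 95% interval -1.6 to 0.60, edgeR adjusted p = 0.587), and it was -0.0514 without parental 2 and -0.97 without transformed 4 (edgeR adjusted p = 0.0946).

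The Spred proteins bind RAF and bring the RAS inhibitor neurofibromin to the membrane. Spred2 (chromosome 11, 19924375 to 20024026) had 64.9, 53.6, 65.5, 63.2 and 60.0 CPM in transformed 4 to 8, against 57.1, 54.0 and 43.0 CPM in parental 1 to 3. All transformed libraries but transformed 5 were above the parental ones. Its log2 fold change of 0.26 (SE 0.12, 95% interval -0.01 to 0.52) missed the threshold (edgeR adjusted p = 0.235). Spred1 (chromosome 2, 117121374 to 117182279) had 86.2, 85.0, 92.7, 113 and 92.7 CPM in transformed 4 to 8, against 92.8, 78.3 and 72.4 CPM in parental 1 to 3. Transformed 7 was the 1 library above parental 1, and the log2 fold change was 0.21 (SE 0.12, 95% interval -0.06 to 0.48, edgeR adjusted p = 0.348). Both were positive in all 18 other settings and passed in 0 of them. Without parental 1 Spred1 was at 0.32, and without parental 3 Spred1 was at 0.14 and Spred2 at 0.15.

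Etv5 (chromosome 16, 22381309 to 22439719) had 49.9, 45.7, 45.8, 45.7 and 48.0 CPM in transformed 4 to 8, against 38.5, 49.8 and 31.9 CPM in parental 1 to 3. The transformed libraries lay close together and reached just above parental 2. The log2 fold change was 0.23 (SE 0.14, 95% interval -0.08 to 0.54, edgeR adjusted p = 0.353), with 0.10 without parental 3 and 0.43 without parental 2. The intervals of Spred1, Spred2 and Etv5 reach no higher than a 1.45-fold and no lower than a 0.949-fold level in transformed over parental cells, whereas those of Dusp5 (0.400 to 1.84), Dusp6 (0.466 to 1.51), Spry2 (0.330 to 1.52) and Spry4 (1.0 to 4.17) were wider.

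The labels place transformed 5 and 8 and parental 1 and 3 in lane 6, and transformed 4, 6 and 7 and parental 2 in lane 7. Within lane 6, Dusp6 passed as lower (log2 fold change -0.78, edgeR adjusted p = 0.0139), and Spry4 (0.84, edgeR adjusted p = 0.0387) and Etv5 (0.43, edgeR adjusted p = 0.0433) as higher, where 10.8% of all genes were called lower and 9.6% higher. Within lane 7, where parental 2 is alone and its spread has to be borrowed from the transformed libraries, 0 passed in edgeR, and 0.0% of all genes did. There Dusp6 was at 0.15 and Etv5 at -0.0848, the other sign, while Spry4 was at 1.19. Spry2, Spred1 and Spred2 kept their signs in both lanes (-0.31 and -0.96, 0.12 and 0.30, 0.19 and 0.25 in lanes 6 and 7), and Dusp2 (0.0522 and -0.94), Dusp4 (0.34 and -0.26) and Dusp5 (0.12 and -0.56) did not.

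**Figure D3:**
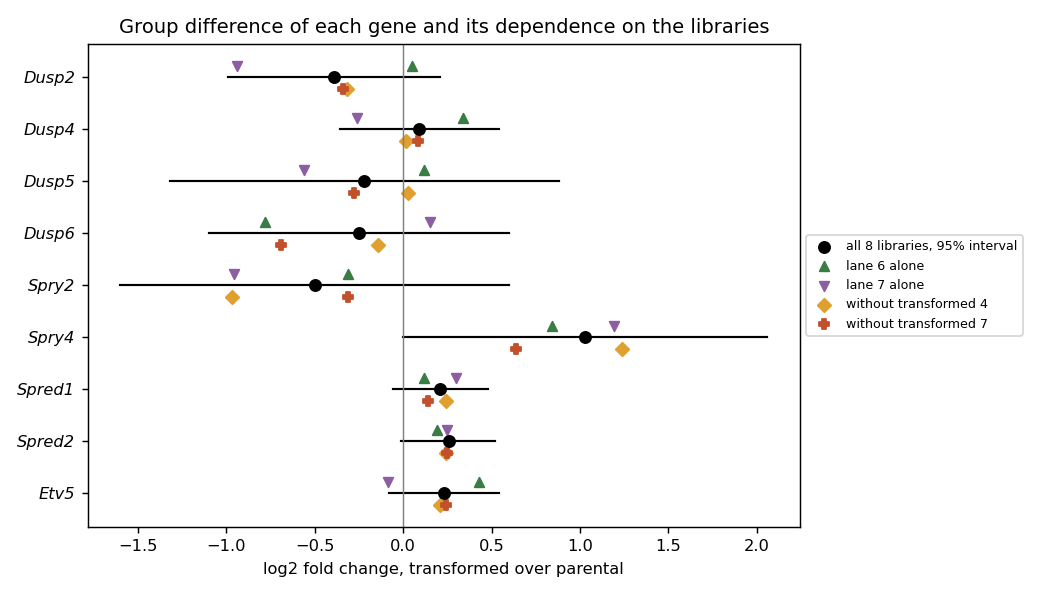
Log2 fold change of transformed over parental cells (horizontal axis) of 9 feedback genes in edgeR over all 8 libraries (black point, 95% interval as a line), within each lane (triangles) and without transformed 4 or transformed 7 (diamond and plus). Every interval includes 0 except that of Spry4, which starts just above 0 (0.00 when rounded), and Dusp6 moves to -0.69 without transformed 7.

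The spread inside the transformed group differed widely between the genes. The SD of log2 CPM over the 5 transformed libraries was 1.03 for Dusp5, 0.87 for Spry4, 0.81 for Spry2 and 0.68 for Dusp6, against a median of 0.20 over the 10345 tested genes with an average log2 CPM of at least 3. Of those genes, 1.24% had a larger spread than Dusp5, 1.95% than Spry4, 2.22% than Spry2 and 3.47% than Dusp6. At the other end Etv5 had an SD of 0.06, and 97.4% of the genes had a larger one. In CPM the highest transformed library was 5.46 times the lowest for Dusp5 and 5.40 times for Spry4, but 1.09 times for Etv5. Spry4 averaged under that abundance limit in CPM terms and its spread holds more counting error than that of the others.

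In the parental libraries the SD of log2 CPM was 0.71 for Spry2, 0.70 for Dusp2 and 0.57 for Dusp5, against a median of 0.10, and 0.541%, 0.561% and 1.01% of the abundant genes had a larger one. Parental 1 was the lowest parental library for each of these 3 genes. Etv5, tight in the transformed group, had an SD of 0.32 in the parental group, and Dusp6 and Spry4, wide in the transformed group, had SDs of 0.17 and 0.21. With 3 libraries such an SD is itself imprecise, and the spreads of the 2 groups were not tested against each other.

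**Figure D4:**
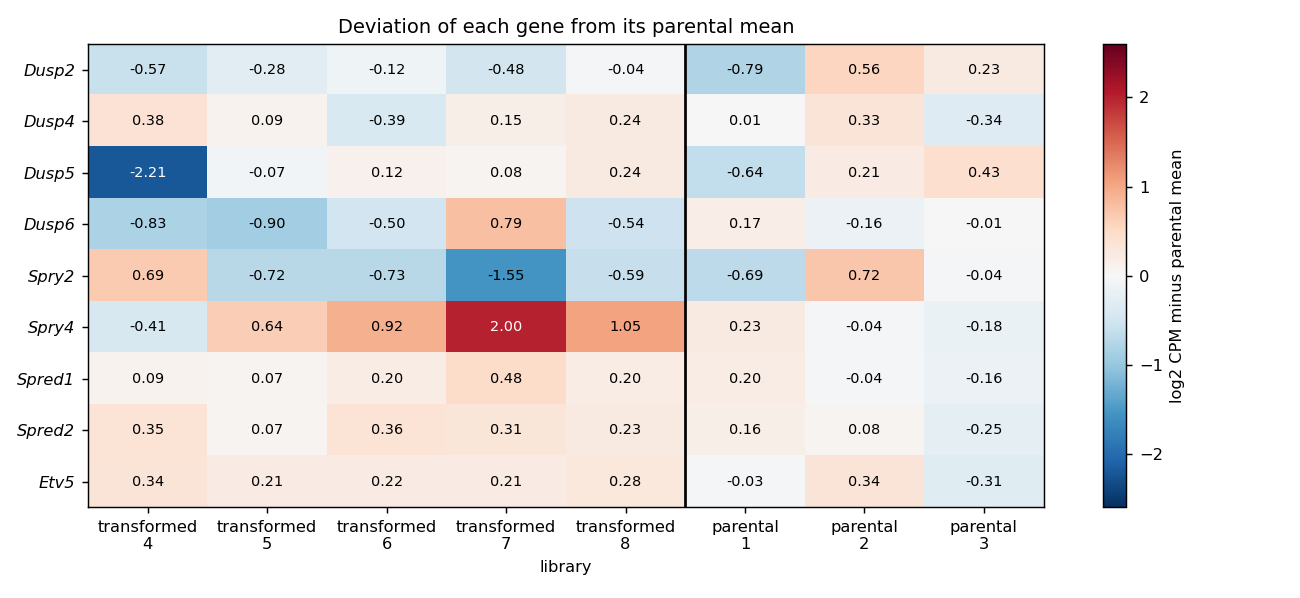
Log2 CPM (prior count 2) of 9 feedback genes in each library minus the gene's mean over the 3 parental libraries (colour and printed value), with transformed libraries left of the black line and parental libraries right of it. Transformed 4 is at -2.21 for Dusp5, and transformed 7 is at 2.0 for Spry4, 0.79 for Dusp6 and -1.55 for Spry2, so that no library is high or low for all genes.

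The 3 genes whose pattern over the 8 libraries was nearest to that of Dusp5, the most abundant of the set, were Dnajc6, Ier3 and Pik3cb, among 10344 candidates. The measure was the root mean square difference of centred log2 CPM, which was 0.293 for Dnajc6, 0.319 for Ier3 and 0.380 for Pik3cb. Among the feedback genes the nearest was Dusp2, at 0.644, and the farthest Spry2, at 1.29. All 3 near genes were lowest in transformed 4, at 10.2 CPM for Dnajc6, 36.5 CPM for Ier3 and 29.1 CPM for Pik3cb, against 26.0, 73.7 and 87.0 CPM or more in parental libraries.

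The other dual-specificity phosphatases and Sprouty or Spred paralogs had 0 of 7 tested genes past the threshold (median log2 fold change 0.13), with 3 at an unadjusted p under 0.05 in edgeR (22.2% of all genes) and 1 called by DESeq2 (10.5% of all genes). Dusp1, an inducible phosphatase with a preference for p38 and JNK, was at 23.3 CPM in transformed and 37.9 CPM in parental libraries (log2 fold change -0.71, SE 0.25, edgeR adjusted p = 0.143). Dusp16, which acts on JNK and p38, had 29.4, 31.7, 40.2, 74.5 and 42.1 CPM in transformed 4 to 8, against 31.6, 23.9 and 22.1 CPM in parental 1 to 3 (log2 fold change 0.75, SE 0.30, edgeR adjusted p = 0.189), and transformed 7 was again the highest library. Dusp3, a small phosphatase active on ERK and JNK, was above the parental range in all 5 transformed libraries (33.9 against 25.4 CPM on average, log2 fold change 0.41, SE 0.13) and missed the threshold in edgeR (adjusted p = 0.102), which it passed in edgeR without transformed 4 (adjusted p = 0.0204) and in DESeq2 (adjusted p = 0.0338). Spred3, the remaining Spred paralog, was at 24.1 CPM in transformed and 25.5 CPM in parental libraries. Dusp8, Dusp9, Dusp22 and Spry3 had too few counts to be tested.

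In the cascade itself, 1 of 30 tested genes rose and 1 fell, beside 0.908% and 2.1% of all genes (median log2 fold change -0.02). Rasgrp2, an exchange factor for the RAS relative RAP1, fell to 40.7, 24.5, 30.5, 38.3 and 23.7 CPM in transformed 4 to 8, against 75.7, 75.7 and 95.9 CPM in parental 1 to 3 (log2 fold change -1.39, SE 0.19, edgeR adjusted p = 0.0130). Every transformed library was below every parental one. Rras2, a RAS-like GTPase, rose to 40.9 ± 2.40 CPM in transformed (SD, n = 5), against 29.4 ± 1.74 CPM in parental libraries (SD, n = 3; log2 fold change 0.48, edgeR adjusted p = 0.0337). Shoc2, a scaffold of RAF activation, was at 68.6 CPM in transformed and 86.3 CPM in parental libraries and missed the threshold (edgeR adjusted p = 0.0703), which it passed without transformed 4 (adjusted p = 0.0397) or transformed 7 (adjusted p = 0.0196). Hras, Nras, Araf, Braf, Map2k1, Map2k2 and Mapk3 did not pass, with log2 fold changes from -0.23 in Mapk3 to 0.36 in Hras. The call of Rasgrp2 was lost without parental 2, parental 3 or transformed 6 and within lane 7 (edgeR adjusted p = 0.0517 to 1), and it kept its sign throughout. Rras2 lost its call in 9 of 18 settings, among them without parental 1, 2 or 3 or transformed 5, 6 or 8 (edgeR adjusted p = 0.0763 to 0.193).

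Among 21 other inhibitors of the pathway, 0 rose and 2 fell, Cblb among them, beside the same shares of all genes (median log2 fold change -0.07). Cblb, a ubiquitin ligase that restrains receptor signalling, fell to 34.5 ± 5.64 CPM in transformed, against 59.9 ± 13.7 CPM in parental libraries (log2 fold change -0.80, edgeR adjusted p = 0.0463). Dok3, an adaptor that inhibits RAS signalling, was at 23.5 CPM in transformed and 38.5 CPM in parental libraries (edgeR adjusted p = 0.0622), and passed in edgeR without transformed 4 (adjusted p = 0.00994) or transformed 7 (adjusted p = 0.042). Nf1, whose product Spred proteins recruit, was at 111 CPM in transformed and 83.1 CPM in parental libraries (log2 fold change 0.41, edgeR adjusted p = 0.163). Cblb lost its call within lane 7, in the fit with a lane term (edgeR adjusted p = 0.0668) and in those without parental 1, 2 or 3 or transformed 5, 6 or 8 (edgeR adjusted p = 0.0524 to 0.237). In limma-voom it only just passed, with an adjusted p that rounds to 0.05.

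Of 26 tested genes listed here as ERK-induced, 0 rose and 1 fell in edgeR, again beside 0.908% and 2.1% of all genes (median log2 fold change -0.10). The list is broad and also holds Elk1, Elk3, Elk4, Srf and Phlda3, so its median is no plain gauge of ERK signalling. The 1 gene that fell was Id1, an inhibitor of basic helix-loop-helix factors that other pathways also induce, at 40.7 ± 6.39 CPM in transformed (SD, n = 5) and 78.3 ± 13.8 CPM in parental libraries (SD, n = 3; log2 fold change -0.94, edgeR adjusted p = 0.0256). Its call was lost in 6 of 18 settings, among them without parental 2 or 3 or transformed 5, 6 or 8 (edgeR adjusted p = 0.0604 to 0.152). Plaur, the urokinase receptor, had 17.1, 22.5, 36.3, 84.7 and 29.4 CPM in transformed 4 to 8, against 13.4, 11.1 and 10.8 CPM in parental 1 to 3, without overlap, and missed the threshold (log2 fold change 1.69, SE 0.51, edgeR adjusted p = 0.104). DESeq2 called it (adjusted p = 0.00287), as did edgeR without transformed 4 (adjusted p = 0.029), without transformed 7 (adjusted p = 0.0314), without both (adjusted p = 0.00132) and in lane 6 (adjusted p = 0.00983). Hbegf, a growth factor of the EGF family, was at 7.13 CPM in transformed and 3.50 CPM in parental libraries (log2 fold change 1.02, edgeR adjusted p = 0.0757), and was called by DESeq2 (adjusted p = 0.00547) and by edgeR without transformed 4 (adjusted p = 0.00895). Transformed 7, highest for Dusp6, Spry4, Dusp16 and Plaur, also had the highest mean over these 26 genes, 0.39 above the parental mean on the log2 scale, while transformed 4 was at -0.41 and parental 1 at -0.37. Transformed 7 was also the library with the fewest counts, and the part of depth in its values was not tested.

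In the stress MAP kinase branch, 0 of 17 tested genes passed in edgeR (median log2 fold change 0.04), beside 3.01% of all genes. There were 5 at an unadjusted p under 0.05 and 1 called by DESeq2, where all genes gave 22.2% and 10.5%. Mapkapk3, a kinase downstream of p38, was at 77.3 and 101 CPM (log2 fold change -0.39, edgeR adjusted p = 0.0571), Map2k5 at 37.4 and 45.2 CPM (edgeR adjusted p = 0.151) and the JNK gene Mapk8 at 56.6 and 45.4 CPM (edgeR adjusted p = 0.170), each pair in transformed and parental libraries.

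**Figure D5:**
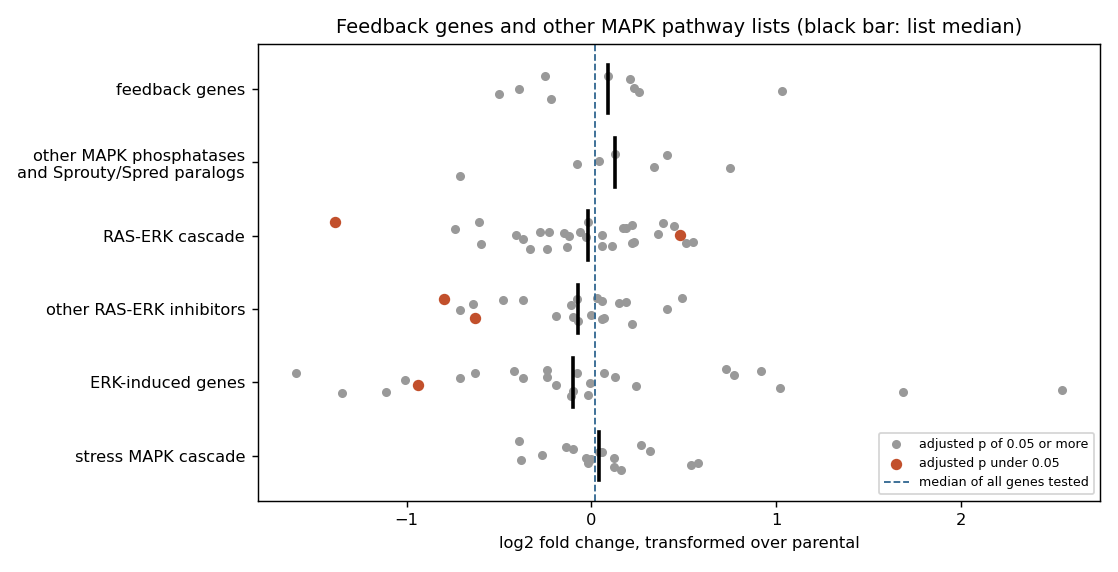
Log2 fold change of transformed over parental cells (horizontal axis) of each tested gene of the feedback set and 5 other MAPK pathway lists (1 point per gene, coloured where the edgeR adjusted p is under 0.05), with the list median as a black bar and the median of all genes tested as a dashed line. No feedback gene is coloured, and the coloured genes include Rasgrp2, Rras2, Cblb and Id1.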

How the data were processed

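RNA of 8 Ba/F3 libraries was measured by polyA RNA sequencing after Trizol extraction, with an Illumina TruSeq kit per the labels' protocols. The authors deposited 1 table of raw counts per Ensembl gene, not normalised. Builds mm10 and GRCm38.p5, and the programs STAR 2.5.3a and featureCounts 1.5.3, are listed in the submitters' processing notes. Not given in the sources used here are the annotation release, the strand setting and how reads with several matches were treated. Symbols, positions and merged exon lengths came from GENCODE M21 (GRCm38), and 105 of the 53465 identifiers found no symbol, and promoter windows came from RefSeq (GRCm38.p6). Columns were mapped by name to the samples, and 0 columns fell outside them. The design also named a comparison of protein sequences, which was not made.

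After filterByExpr had kept 17733 genes, groups were compared by the robust quasi-likelihood F test of edgeR 4.0.16 (R 4.3.3) with TMM factors, with Benjamini-Hochberg adjustment over all of them and a threshold of 0.05. CPM values are TMM-scaled, log2 CPM has a prior count of 2, and fold changes are transformed over parental. The functions were tested on simulated data. The genes and lists were chosen with earlier results of these data known. Named were all 10 feedback genes, U2af1, the 3 lowest p-values of each pathway list, and the 3 genes nearest in pattern to the most abundant feedback gene, and other genes named were chosen after their values were seen. Some genes that this rule or the pathway lists cover are not reported here. Alternatives were DESeq2 1.42.0, limma-voom (limma 3.58.1), RLE or upper-quartile factors, other filters, a lane term, single lanes, leaving out each library in turn, and leaving out transformed 4 and 7 together. Transformed 4 and 7 stood apart in several of the feedback genes, so a call gained only without them rests on that choice. Floors of counts cover counting error only, and the intervals of fold changes were derived from the edgeR test and so cover the spread between libraries.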

Additional observations from a re-analysis of the deposited data

Results flagged for a closer look

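In 8 cases a transformed library stood apart from the other 4 by a gap that took up more of the group's range than Dixon's 95% critical value for 5 samples allows, among 28 genes with values in the text. Chance flags about 1 in 20 groups, and the 8 cases are not independent, since all of them fall on transformed 4 or transformed 7.

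Transformed 4 was the low one for Dusp5 (17.1 CPM, against 75.3 to 93.2 CPM in the other transformed libraries and 50.6 to 106 CPM in parental ones), for Dnajc6 (10.2 CPM) and for Pik3cb (29.1 CPM). The last of these genes were picked for being like Dusp5. Transformed 4 was the high one for Spry2 (17.0 CPM), a level that parental 2 also had (17.5 CPM).

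Transformed 7 was the high one for Dusp6 (156 CPM), for Spred1 (113 CPM), for Dusp16 (74.5 CPM) and for Plaur (84.7 CPM). Each of these values was above all 3 parental libraries.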

How the results depend on the processing

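No paired analysis was possible because the groups share no replicate numbers. The median of all genes tested was 0.02 (log2). Over all genes, 161 were called higher and 372 lower, against 850 and 1001 in DESeq2, 15 and 79 with lane as a covariate, 1682 and 1883 in lane 6, 0 and 0 in lane 7 (edgeR adjusted p) and 2238 and 2804 without transformed 4 and 7. Leaving out 1 library gave 3 to 1100 higher (lowest without parental 2, highest without transformed 4) and 21 to 1628 lower (lowest without parental 3, highest without transformed 4), and without transformed 7 it gave 505 and 838. Of the feedback genes 2 were called higher and 1 lower in lane 6, 1 and 1 without transformed 4 and 7, and 0 to 1 in each direction with 1 library left out. Their median of 0.09 was -0.08 in lane 7, and 0.01 (without parental 3) to 0.20 (without transformed 6) with 1 library left out. Signs turned for Dusp2 in lane 6 (0.0522), Dusp4 in lane 7 (-0.26) and without transformed 4 and 7 (-0.023), Dusp5 in lane 6 (0.12) and without transformed 4 and 7 (0.0364), Dusp6 (0.15) and Etv5 (-0.0848) in lane 7, and, with 1 library left out, for Dusp4 (-0.0573 to 0.28) and Dusp5 (-0.47 to 0.0291).

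The other phosphatases and paralogs had 1 gene called higher in DESeq2, 3 in lane 6, 2 without transformed 4 and 7 and 0 to 1 with 1 library left out, and a median of 0.47 in lane 6. The cascade had 0 higher without the low-count filter, with lane as a covariate and in lane 7, and 4 in lane 6 and without transformed 4 and 7. It had 3 lower in DESeq2, 5 in lane 6, 0 in lane 7 and 8 without transformed 4 and 7, and 0 to 1 higher and 0 to 3 lower with 1 library left out. The other inhibitors had 1 higher without transformed 4 and 7, and 4 lower in DESeq2, 0 with lane as a covariate and in lane 7, 5 in lane 6, 6 without transformed 4 and 7 and 0 to 5 with 1 library left out. The ERK-induced genes had 3 higher in DESeq2 and lane 6 and 5 without transformed 4 and 7, 2 lower in DESeq2, 0 in lane 7 and 3 without transformed 4 and 7, and 0 to 3 higher and 0 to 2 lower with 1 library left out. The stress branch had 1 higher without transformed 4 and 7, 1 lower in DESeq2, 2 in lane 6 and 3 without transformed 4 and 7, 0 to 1 either way with 1 library left out, and medians of 0.10 in lane 7 and -0.02 to 0.08 with 1 library left out. Beside these list counts, DESeq2 called 10.5% of all genes in either direction. In lane 6, 9.6% of all genes were called higher and 10.8% lower. Without transformed 4 and 7 these shares were 12.8% and 16.1%. Of all genes, 6.25% were called higher without transformed 4 and 4.76% lower without transformed 7. No list was tested against these shares, and the cause of the shifts between settings was not tested. All 3 genes nearest to Dusp5 were the same with a prior count of 0.5 and with RLE factors, settings that keep all 8 libraries. Leaving libraries out can change which genes lie nearest, and was not among the alternatives for this ranking.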

Other observations

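Several immediate early genes separated parental 1 from the other parental libraries, and these were chosen after their values were seen. Egr2, a zinc finger factor induced by ERK, had 4.58, 3.37, 5.43, 7.91 and 5.73 CPM in transformed 4 to 8, against 3.26, 19.2 and 26.7 CPM in parental 1 to 3. Fos, a subunit of AP-1, had 3.88, 7.24, 9.13, 21.0 and 9.72 CPM in the transformed libraries, against 5.80, 31.8 and 40.4 CPM in the parental ones. Ier2 had 82.2, 130, 160, 209 and 151 CPM in the transformed libraries, against 114, 383 and 387 CPM in the parental ones. Zfp36, an RNA-binding protein that shortens the life of cytokine transcripts, had 12.7, 21.0, 23.3, 27.4 and 34.6 CPM in the transformed libraries, against 17.4, 62.1 and 74.0 CPM in the parental ones. In each of these 4 genes parental 1 lay below parental 2 and 3 and under at least 1 transformed library. Among the feedback genes, parental 1 was the lowest parental library for Dusp2, Dusp5 and Spry2. It was the highest for Dusp6 (102 CPM), Spry4 (3.36 CPM), Spred1 (92.8 CPM) and Spred2 (57.1 CPM). None of the 4 immediate early genes passed the threshold, with edgeR adjusted p of 0.136 for Egr2, 0.256 for Fos, 0.188 for Ier2 and 0.191 for Zfp36.

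Etv4, the close relative of Etv5, was counted 15, 17, 29, 89 and 35 times in transformed 4 to 8, against 12, 3 and 7 times in parental 1 to 3, without overlap. It missed the threshold (log2 fold change 2.55, SE 0.85, edgeR adjusted p = 0.129) and was also chosen after its values were seen. Phlda1 had 26.3, 34.9, 49.7, 91.3 and 67.7 CPM in transformed 4 to 8, against 27.5, 27.8 and 30.4 CPM in parental 1 to 3. In both genes transformed 7 was the highest and transformed 4 the lowest transformed library, the same ends as for Spry4.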
